A study of Schizosaccharomyces pombe 972h- with 8 samples.

Results

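The mug genes of fission yeast, named for being meiotically upregulated, were examined in vegetative cells of Schizosaccharomyces pombe before and after oxidative stress. A gene was taken as a member when the first name in its deposited identifier was mug followed by a number, and 17 of 4854 genes met this rule, all of them measured on each platform. Another 160 genes carry a mug name only as a later synonym and were used for comparison. The rule uses the names and no measured value.

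RNA abundance was measured in wild-type strain 972h- grown in yeast extract medium, in 2 cultures from independent single colonies. Cells taken from each culture before treatment served as control. The rest were taken after 30 minutes in 0.5 mM hydrogen peroxide (H2O2). No untreated cells were taken after the same 30 minutes, so effects of H2O2 cannot be told apart from those of the added time. The same RNA was hybridized to an Affymetrix expression array (Sp_EMA) and to a tiling array (Sp_TMA), which gives 2 arrays a condition on either platform. Target for Sp_TMA kept the polarity of the transcripts, so that each gene was read from its own strand, while that for Sp_EMA was double-stranded. Cells of an h- strain cannot mate with each other, and no meiotic sample was among the arrays, so the induction in meiosis that gave the genes their name could not be checked here.

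In fission yeast, nitrogen starvation induces the transcription factor Ste11, which turns on the genes of mating and of meiotic entry. The RNA-binding protein Mei2 then commits the cell to meiosis, and the forkhead factor Mei4 activates the middle genes needed for the meiotic divisions and for spore formation. In vegetative cells many meiotic transcripts are kept low, in part because Mmi1 marks them for destruction by the exosome. The mug name comes from a screen of genes induced during this programme, and it groups genes by their time of expression rather than by function. Several have since been given names after their function, among them the autophagy genes atg101 (mug66), atg5 (mug77) and atg1802 (mug179), the palmitoyltransferase gene erf2 (mug142), the dynamitin gene jnm1 (mug1), the cyclin gene clg1 (mug80), spo7 (mug79) and mmc1 (mug99).

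The sequence GTAAACA, a core form of the forkhead site bound by Mei4, was searched on both strands from 250 bases before to 50 bases after the annotated start of each gene in the reference genome ASM294v3 (RefSeq). It was found at 7 of the 17 mug genes (41.2%) and at 811 of the 4842 genes with a window (16.7%). It is shown for these 7 because their change in H2O2 can be set beside it. The lines give 30 bases upstream of each gene, read along the strand of the gene, with GTAAACA or its reverse complement in capitals.

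mug28, chrI:1650944-1650973, plus strand: aatttccTGTTTACtttTGTTTACattgag

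mug80, chrII:1748031-1748060, minus strand: tgtcccattgttTGTTTACctcgctcccaa

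mug97, chrII:1021522-1021551, minus strand: taagcatttattTGTTTACaaataaattgg

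mug117, chrIII:1257653-1257682, minus strand: tttgtaaagctcTGTTTACgatcttaaaaa

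mug123, chrIII:698755-698784, plus strand: cgtatgttcgagaatgagacatGTAAACAt

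mug142, chrII:1867581-1867610, minus strand: tttatttgcttaGTAAACAaactttggcgg

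mug174, chrIII:378199-378228, minus strand: gtaaatgtggtgGTAAACAgaacgtcttaa

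A pair of sites lay close together upstream of mug28, starting 61 and 51 bases before the gene, and mug174 had a further copy across its annotated start. The other motifs were rarer. The MBF site ACGCGT occurred at 1 mug gene, mug5, which had 2 copies within 30 bases, shown here in capitals, and at 3.37% of all windows. It was mug5, chrI:5242991-5243020, plus strand: taaaaaaaACGCGTttACGCGTagtagaga. The letters TTCTTTGTT, the Ste11 box without its last letter, occurred at mug99 and at 2.02% of all windows. The Atf1 site TGACGT occurred at 0 of the 17 and at 5.89% of all windows. A match is a run of letters and not a measured binding site, and no match says only that these letters are not in the window.

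The platforms gave complete data for all 17 mug genes. Medians of the 4854 genes ran from 10.29 to 10.31 (log2) over the Sp_TMA arrays and from 11.10 to 11.13 over the Sp_EMA arrays, and the lowest values were 4.02 and 5.04. Levels are not set across platforms, which were normalized separately, and a signal depends on the probes of a gene as well as on its RNA. With that limit, mean signals of the mug genes in control cells had a median of 9.04 on Sp_TMA (lowest 4.73, highest 13.94) and of 8.78 on Sp_EMA (lowest 5.86, highest 13.66). The lowest 25% of all gene signals held 11 of the 17 on Sp_TMA and 14 on Sp_EMA, and the highest 25% held 1, the cyclin gene mug80 (clg1), on both. Of the 160 genes with mug as a later name, 90 and 100 were in the lowest 25%.

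**Figure D1:**
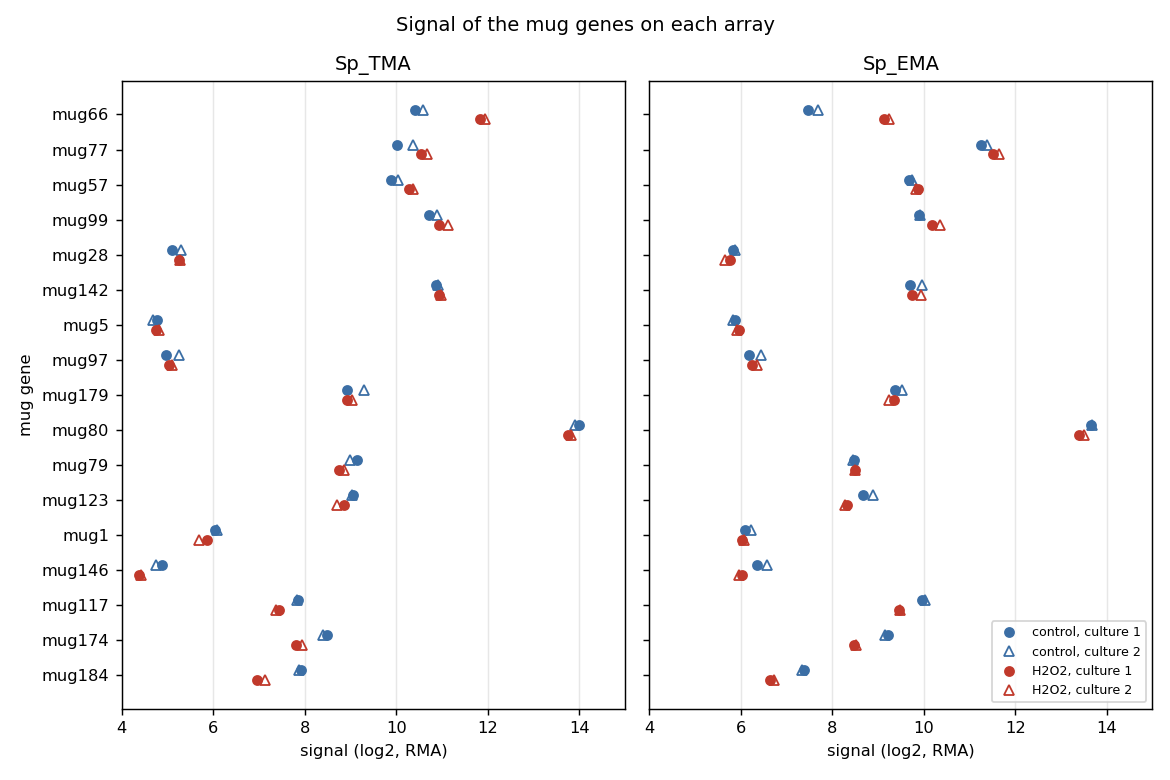
Signal (log2, RMA) of the 17 mug genes on each array of Sp_TMA (left) and Sp_EMA (right), with control in blue, H2O2 in red, culture 1 as circles and culture 2 as triangles. Signals of mug66 lie well to the right in H2O2 on both platforms, while most other genes move by little.

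Between control and H2O2, the mug genes moved in both directions. The change was tested with limma on all 4854 genes of each platform, and a gene was called higher or lower at a Benjamini-Hochberg adjusted p below 0.05. On Sp_TMA, 3 of 17 mug genes were higher (17.6%), 6 were lower (35.3%) and 8 were not called. Over all genes the shares were 25.2% higher and 31.3% lower. On Sp_EMA the counts were again 3 higher, 6 lower and 8 not called, beside 22.7% higher and 36.2% lower over all genes. Shares of the mug genes were thus near those of the whole array in both directions. Their median change was -0.12 (log2) on Sp_TMA and -0.10 on Sp_EMA, where the median over all genes was -0.05 and -0.07.

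Both platforms called 2 mug genes higher, mug66 and mug77, and 5 lower, mug184, mug174, mug117, mug146 and mug123. Over all genes, 962 were higher on both (19.8%) and 1311 lower on both (27.0%). Another 2 mug genes were called on Sp_TMA alone (mug57 higher and mug1 lower), 2 on Sp_EMA alone (mug99 higher and mug80 lower), 6 on neither, and 0 in opposite directions. Over all genes 460 were called on Sp_TMA alone, 582 on Sp_EMA alone, 1531 on neither and 8 in opposite directions. Of the 17, mug66 alone passed 2-fold. At least 2-fold higher were 6.32% of all genes on Sp_TMA and 5.36% on Sp_EMA, and at least 2-fold lower 4.18% and 4.84%. The number of arrays limits the precision. With 2 arrays a group each gene had 2 residual degrees of freedom, and the prior of limma contributed another 4.22 on Sp_TMA and 3.03 on Sp_EMA. No exact permutation test is given, because its smallest possible p with so few arrays is 0.333.

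**Figure D2:**
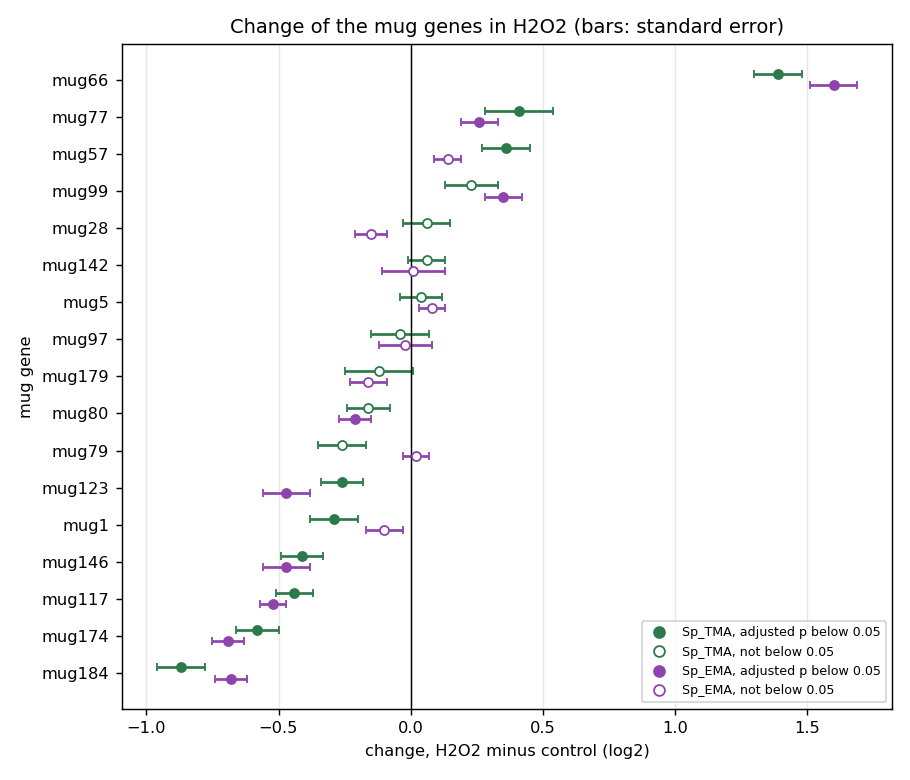
Change of each mug gene in H2O2 relative to control (log2) on Sp_TMA (green) and Sp_EMA (purple), sorted by the change on Sp_TMA, with bars for the standard error from limma (2 against 2 arrays). Filled points have an adjusted p below 0.05, and mug66 is the only gene past 1 on the log2 scale.

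Among the members that are autophagy genes, mug66 (atg101) rose the most. Autophagy delivers cell material to the vacuole for breakdown, it supplies nitrogen to starved cells that enter meiosis, and Atg101 is a subunit of the Atg1 kinase complex that starts it. On Sp_TMA the signal of mug66 was 10.41 and 10.57 (log2) in control cells of culture 1 and culture 2, and 11.82 and 11.94 in H2O2. Sp_EMA gave 7.47 and 7.70 in control cells, and 9.13 and 9.24 in H2O2. The groups were far apart on both platforms and both cultures moved alike. Its change was 1.39 (standard error 0.09, adjusted p = 8.1e-05 from limma) on Sp_TMA, 2.62-fold, and 1.60 (standard error 0.09, adjusted p = 1.8e-04) on Sp_EMA, 3.02-fold. This placed mug66 at percentile 96.2 of all changes on Sp_TMA and at 97.3 on Sp_EMA. In ASM294v3 it occupies 2527958 to 2528644 of chromosome I, plus strand, with 2 exons and a coding length of 555 bp.

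The 250 bases upstream of mug66 are shown because it had the largest change of the mug genes, and none of the 4 motifs searched was found in its window. They are read along the plus strand, with no part in capitals. It is mug66, chrI:2527708-2527957: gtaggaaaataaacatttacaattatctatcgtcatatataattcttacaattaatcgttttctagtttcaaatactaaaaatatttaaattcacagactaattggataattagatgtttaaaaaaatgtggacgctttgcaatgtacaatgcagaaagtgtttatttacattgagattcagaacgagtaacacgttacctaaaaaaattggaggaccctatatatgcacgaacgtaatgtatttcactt

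Next among the autophagy members, mug77 (atg5) rose by less. Atg5 is joined to Atg12 and helps to attach Atg8 to the membrane of the growing autophagosome. The signal of mug77 went from 10.02 and 10.36 in control cells to 10.53 and 10.67 in H2O2 on Sp_TMA, and from 11.25 and 11.38 to 11.52 and 11.64 on Sp_EMA. Both H2O2 arrays were above both control arrays on each platform, though control cells of culture 2 came close to the H2O2 level of culture 1. Changes were 0.41 (standard error 0.13, adjusted p = 0.0314 from limma) on Sp_TMA and 0.26 (standard error 0.07, adjusted p = 0.0274) on Sp_EMA. The call was lost without control array 1 (0.24 on Sp_TMA and 0.20 on Sp_EMA), H2O2 array 1 (0.48 and 0.32) or H2O2 array 2 (0.35 and 0.20).

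No call was made for mug179 (atg1802), of the Atg18 family of phosphoinositide-binding proteins. Its signal on Sp_TMA was 8.92 and 9.28 in control cells and 8.93 and 9.02 in H2O2, so that the groups overlapped. Sp_EMA gave 9.38 and 9.52 in control cells, and 9.35 and 9.24 in H2O2. The change of mug179 was -0.12 on Sp_TMA (95% interval -0.43 to 0.19, adjusted p = 0.448 from limma) and -0.16 on Sp_EMA (95% interval -0.35 to 0.03, adjusted p = 0.125).

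The largest falls were those of mug184 and mug174. The annotation gives no function for mug184, which occupies 299347 to 301391 of chromosome II in ASM294v3, minus strand, with 3 exons and a coding length of 1656 bp. Its signal was 7.92 and 7.87 in control cells and 6.95 and 7.12 in H2O2 on Sp_TMA, and 7.38 and 7.34 against 6.64 and 6.72 on Sp_EMA. Both cultures fell by several times the gap between them. The change was -0.87 (standard error 0.09, adjusted p = 4.1e-04 from limma) on Sp_TMA and -0.68 (standard error 0.06, adjusted p = 4.6e-04) on Sp_EMA.

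mug174 encodes a coilin, a protein of the family that organizes Cajal bodies in the nucleus of other organisms. In ASM294v3 it occupies 375428 to 378062 of chromosome III, minus strand, with a coding length of 1881 bp. Signals on Sp_TMA were 8.49 and 8.40 in control cells and 7.80 and 7.93 in H2O2. On Sp_EMA they were 9.22 and 9.15 in control cells and 8.47 and 8.52 in H2O2. All H2O2 arrays were below all control arrays of their platform. Its change was -0.58 (standard error 0.08, adjusted p = 0.00166 from limma) on Sp_TMA and -0.69 (standard error 0.06, adjusted p = 4.4e-04) on Sp_EMA.

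A further 3 genes of no annotated function fell on both platforms. Each lies at least in part opposite another gene, which does not set them apart. A gene on the other strand covers some coding base of 16 of the 17 mug genes (94.1%) and of 82.1% of all genes. mug117 is covered in full by cca2, the tRNA nucleotidyltransferase gene, on the other strand. Its signal went from 7.84 and 7.83 to 7.43 and 7.37 on Sp_TMA and from 9.96 and 10.02 to 9.46 and 9.49 on Sp_EMA. The differences were -0.44 (standard error 0.07, adjusted p = 0.00336, limma) and -0.52 (standard error 0.05, adjusted p = 8.8e-04), while cca2 changed by -0.04 (adjusted p = 0.699) and -0.02 (adjusted p = 0.737). The calls of mug184, mug174 and mug117 were made without any one array of a platform too.

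mug123 has 96.3% of its coding bases under taf6, which encodes a subunit of the transcription factor TFIID. Its signal was 9.05 and 9.03 in control cells and 8.85 and 8.71 in H2O2 on Sp_TMA, and 8.67 and 8.89 against 8.33 and 8.29 on Sp_EMA. The H2O2 arrays were lower on both platforms, by little on Sp_TMA. Changes of mug123 were -0.26 (standard error 0.08, adjusted p = 0.0381 from limma) and -0.47 (standard error 0.09, adjusted p = 0.00660), while taf6 changed by 0.02 (adjusted p = 0.853) and -0.05 (adjusted p = 0.408). The call on Sp_TMA was lost with the culture as a replicate block (-0.26, adjusted p = 0.0639), and without control array 1 (-0.25), control array 2 (-0.27) or H2O2 array 2 (-0.19).

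mug146 overlaps mpc1, on the other strand, by 75 bp of its transcript. Signals of mug146 were 4.87 and 4.74 in control cells and 4.38 and 4.41 in H2O2 on Sp_TMA, where the lowest value of any gene was 4.02. On Sp_EMA they were 6.35 and 6.58 in control cells and 6.02 and 5.97 in H2O2, above a lowest value of 5.04. Signals so near the lowest values bound the fall that can be seen. The change of mug146 was -0.41 (standard error 0.08, adjusted p = 0.00617 from limma) and -0.47 (standard error 0.09, adjusted p = 0.00809), while mpc1 rose by 0.51 (adjusted p = 0.00840) and 0.39 (adjusted p = 0.00932). With an intensity trend in the variance, the adjusted p of mug146 was 0.0543 on Sp_TMA, and without H2O2 array 2 it was 0.0566 on Sp_EMA.

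mug1 (jnm1) encodes the dynamitin subunit of dynactin, which works with the dynein motor that moves the nucleus back and forth in meiotic prophase. On Sp_TMA its signal was 6.04 and 6.07 in control cells and 5.85 and 5.68 in H2O2. The fitted difference was -0.29, with a standard error of 0.09 (adjusted p = 0.0330, limma). Its signal on Sp_EMA was 6.09 and 6.23 against 6.04 and 6.07, a change of -0.10 (95% interval -0.27 to 0.07, adjusted p = 0.244). Control signals of mug1 lay at percentile 4.14 of all genes on Sp_TMA and 3.42 on Sp_EMA, which bounds the fall that can be seen. The call on Sp_TMA was lost with an intensity trend (adjusted p = 0.104), without either control array (-0.31 and -0.27) and without H2O2 array 2 (-0.20).

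mug80 (clg1), a cyclin gene, had the highest signal of the mug genes. It went from 13.98 and 13.91 to 13.75 and 13.81 on Sp_TMA and from 13.65 and 13.67 to 13.40 and 13.50 on Sp_EMA. The H2O2 arrays were lower by a small amount on both. Changes were -0.16 (95% interval -0.35 to 0.03, adjusted p = 0.121 from limma) on Sp_TMA and -0.21 (standard error 0.06, adjusted p = 0.0271) on Sp_EMA, where the call was lost without any one of the 4 arrays (changes from -0.26 to -0.16).

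mug79 (spo7), whose protein acts at the spindle pole body in forming the spore membrane, was 9.13 and 8.98 in control cells and 8.75 and 8.85 in H2O2 on Sp_TMA. Sp_EMA gave 8.47 and 8.45 in control cells and 8.49 in both cultures in H2O2. The groups lay apart on Sp_TMA and within 0.1 of each other on Sp_EMA. Changes of mug79 were -0.26 (95% interval -0.48 to -0.04, adjusted p = 0.0504 from limma) and 0.02 (95% interval -0.10 to 0.15, adjusted p = 0.709). mug28, an RNA-binding protein gene needed for the spore membrane, was near the lowest values, at 5.09 and 5.29 in control cells and 5.24 and 5.26 in H2O2 on Sp_TMA, and at 5.84 and 5.88 against 5.76 and 5.65 on Sp_EMA. Its groups overlapped on Sp_TMA, with changes of 0.06 (95% interval -0.16 to 0.29, adjusted p = 0.595) and -0.15 (95% interval -0.31 to -0.00, adjusted p = 0.0765). mug28 lies opposite mrp17, of the mitochondrial ribosome, which changed by 0.14 (adjusted p = 0.210) on Sp_TMA and was lower on Sp_EMA (-0.29, adjusted p = 0.00679).

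mug99 (mmc1) was 10.72 and 10.88 in control cells and 10.92 and 11.13 in H2O2 on Sp_TMA, and 9.90 and 9.93 against 10.18 and 10.35 on Sp_EMA. The arrays of H2O2 were above those of control on both, by a narrow gap on Sp_TMA. Its changes were 0.23 (95% interval -0.02 to 0.48, adjusted p = 0.108 from limma) on Sp_TMA and 0.35 (standard error 0.07, adjusted p = 0.0106) on Sp_EMA. Without H2O2 array 2 the change on Sp_EMA was 0.27 (adjusted p = 0.0509). mug142 (erf2), a palmitoyltransferase that adds a lipid to target proteins, had 10.87 and 10.91 in control cells and 10.92 and 10.97 in H2O2 on Sp_TMA, and 9.70 and 9.97 against 9.74 and 9.94 on Sp_EMA. Cultures differed by more than conditions on Sp_EMA, and the changes were 0.06 (95% interval -0.13 to 0.24, adjusted p = 0.556) and 0.01 (95% interval -0.29 to 0.31, adjusted p = 0.946).

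mug57 and mug97 are both members and lie on opposite strands of the same stretch of chromosome II. In ASM294v3 mug57 runs from 1019543 to 1021681 on the plus strand and mug97, also known as meu33, from 1020184 to 1021448 on the minus strand, so that the transcript of mug57 covers all 1265 bp of mug97. Their coding regions, of 570 bp and 1038 bp, share 27 bp. On Sp_TMA mug57 had 9.88 and 10.04 in control cells and 10.27 and 10.37 in H2O2, while mug97 had 4.96 and 5.24 in control cells and 5.02 and 5.10 in H2O2. On Sp_EMA the values were 9.69 and 9.74 against 9.87 and 9.83 for mug57, and 6.18 and 6.45 against 6.24 and 6.35 for mug97. The signal of mug97 thus stayed near the lowest values of both platforms in both conditions, with overlapping groups.

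The change of mug57 was 0.36 (standard error 0.09, adjusted p = 0.0151 from limma) on Sp_TMA and 0.14 (95% interval 0.01 to 0.27, adjusted p = 0.0710) on Sp_EMA. On Sp_TMA the call was lost without control array 1 (0.28) or H2O2 array 2 (0.31). mug97 changed by -0.04 (95% interval -0.31 to 0.23, adjusted p = 0.802) and -0.02 (95% interval -0.29 to 0.25, adjusted p = 0.883).

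**Figure D3:**
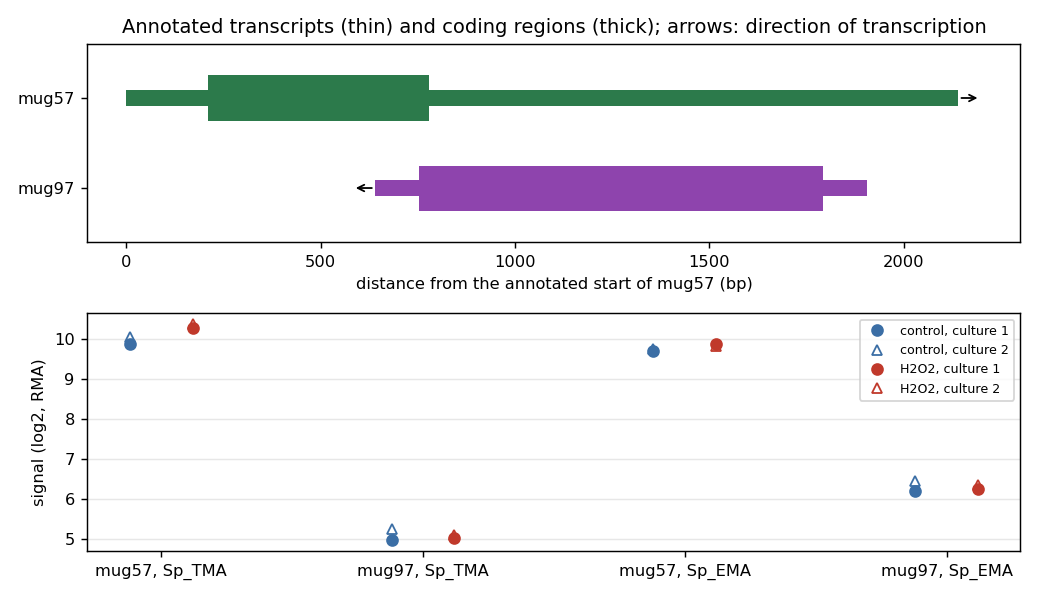
Upper panel: annotated transcripts (thin) and coding regions (thick) of mug57 and mug97 by distance from the start of mug57 in bp, with arrows for the direction of transcription. Lower panel: signal (log2, RMA) of both genes on each array, where mug57 lies between 9.69 and 10.37 and mug97 between 4.96 and 6.45.

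The last member, mug5, has no annotated function and the lowest mean signal in control cells on Sp_TMA. Its values were 4.77 and 4.69 in control cells and 4.74 and 4.80 in H2O2 on Sp_TMA, and 5.87 and 5.84 against 5.97 and 5.91 on Sp_EMA. The changes were 0.04 (95% interval -0.15 to 0.23, adjusted p = 0.693 from limma) and 0.08 (95% interval -0.05 to 0.22, adjusted p = 0.236). Its transcript overlaps by 78 bp, on the same strand, that of agn1, a glucanase gene of cell separation, which was lower, with changes of -2.22 (adjusted p = 1.3e-05) on Sp_TMA and -1.95 (adjusted p = 4.5e-05) on Sp_EMA.

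Opposite-strand transcripts are common at these genes. An annotated gene on the other strand covered at least 90% of the coding bases of 9 of the 17 mug genes (52.9%) and of 33.4% of the 4842 genes matched to the annotation. For protein-coding genes on the other strand the numbers were 4 of 17 (23.5%) and 7.08%, and for lncRNA genes 4 of 17 and 25.6%. Since target for Sp_EMA was double-stranded, RNA of the other strand can add to its signals, and the part of such RNA in these values was not tested.

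The changes on both platforms were then set against each other by an interaction term in limma over all 8 arrays. For 0 of the 17 mug genes did the change differ between platforms at an adjusted p below 0.05, where 1.94% of all genes did. At an unadjusted p below 0.05 there was 1, mug79, where the difference (Sp_TMA minus Sp_EMA) was -0.28 (standard error 0.10) and the adjusted p from limma 0.184. The test that pairs the platforms within each culture also gave 0 of 17, where it called 13.7% of all genes, with an adjusted p of 0.0894 for mug79. The differences for mug57 (0.22, adjusted p = 0.276), mug28 (0.22, adjusted p = 0.321), mug66 (-0.21, adjusted p = 0.429), mug123 (0.21, adjusted p = 0.357) and mug1 (-0.19, adjusted p = 0.390) did not pass either, so a call on 1 platform alone does not show a difference between them.

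**Figure D4:**
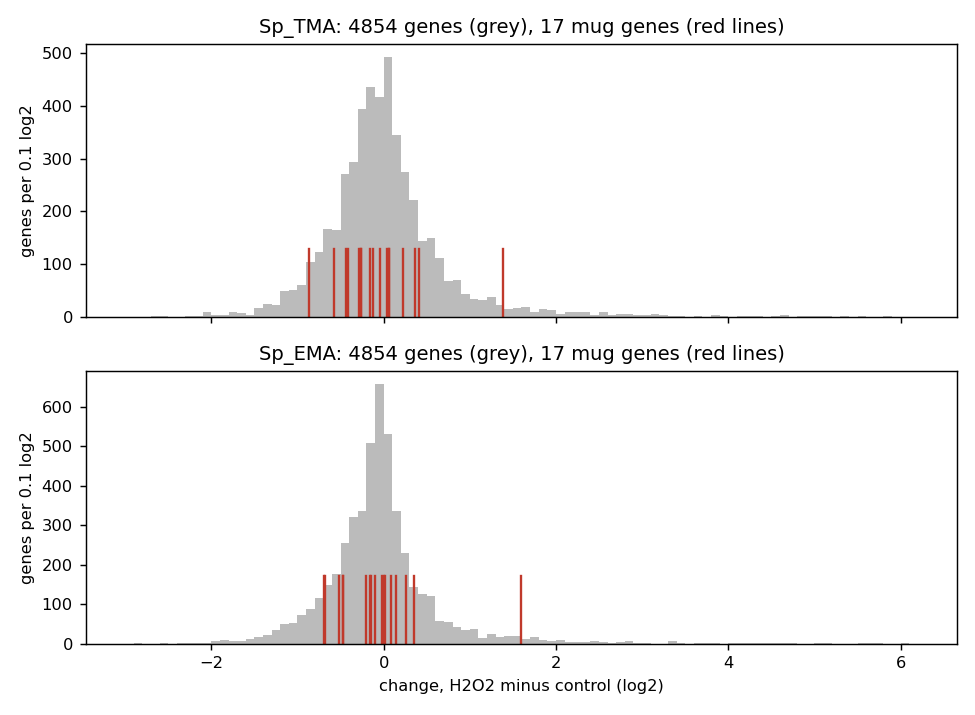
Change in H2O2 relative to control (log2) of all 4854 genes (grey, genes per bin of 0.1) with the 17 mug genes as red lines, on Sp_TMA (top) and Sp_EMA (bottom). The mug genes spread over the body of both distributions, from -0.87 to 1.39 and from -0.69 to 1.60, and mug66 stands apart on the right.

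Of the 7 mug genes with GTAAACA in the window, mug117, mug123 and mug174 fell on both platforms and mug80 fell on Sp_EMA. The other 3 (mug28, mug97 and mug142) were not called, and 0 of the 7 were higher on either platform. Over all 811 genes with the motif, 19.0% were higher and 38.1% lower on Sp_TMA, and 19.2% and 42.4% on Sp_EMA. Counts of 7 genes are too small to be read against these shares, and no test was made.

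Other genes of meiosis also moved in both directions. Of 12 measured meiotic regulators, 7 were higher and 4 lower on Sp_TMA, and 4 and 4 on Sp_EMA (58.3% and 33.3%, then 33.3% and 33.3%, to be read beside the shares over all genes above). The largest change was that of ste11, which fell (-2.14 and -2.37 on Sp_TMA and Sp_EMA), as did the cyclin gene cig2 (-1.94 and -1.81), mei2 (-1.75 and -0.94) and mmi1 (-0.41 and -0.55). The genes mei4 (1.09 and 1.50), ran1, also known as pat1 (0.99 and 0.94), rep1 (0.71 and 0.92) and crs1 (0.65 and 0.34) rose on both platforms. Of 20 genes of meiotic recombination and cohesion, 6 were higher and 5 lower on Sp_TMA, and 5 and 4 on Sp_EMA. The recombinase gene dmc1 rose by 1.02 and 0.44 and the cohesin gene rec8 by 0.91 and 0.28, while the shugoshin gene sgo1 fell (-0.47 and -0.55) and the cohesin gene rec11 fell on Sp_TMA (-0.65) and was not called on Sp_EMA (-0.22). Of 15 genes of spore formation found by their deposited names, 2 were higher and 5 lower on Sp_TMA (13.3% and 33.3%). On Sp_EMA the counts were 2 and 4 (13.3% and 26.7%). These counts leave out spo7, which is deposited as mug79 and was not called on either platform. The lowest change among the 15 was that of spo5 on Sp_TMA (-1.07, and -0.37 on Sp_EMA). The 26 meu entries, mug97 among them, held 1 higher and 9 lower on Sp_TMA (3.85% and 34.6%), and 3 and 5 on Sp_EMA (11.5% and 19.2%). They hold 2 entries named meu1, which are counted apart. On Sp_TMA these changed by -0.80 (lower) and 0.05 (not called), and on Sp_EMA by -0.00 (not called) and 0.16 (higher). Over all genes, 25.2% were higher and 31.3% lower on Sp_TMA, and 22.7% and 36.2% on Sp_EMA. No test of these lists against all genes was made.

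Genes with mug as a later name also moved both ways. Of these 160, 47 were higher (29.4%) and 52 lower (32.5%) on Sp_TMA, and 43 (26.9%) and 55 (34.4%) on Sp_EMA. Changes reached from -1.46 up to 3.31 (Sp_TMA) and from -1.60 up to 3.72 (Sp_EMA), and 19 (11.9%) and 18 (11.2%) of them were at least 2-fold higher, beside 6.32% and 5.36% of all genes. At least 2-fold lower were 6 and 6 (3.75% on each), beside 4.18% and 4.84% of all genes. Their medians, -0.07 and -0.05, lay near those of all genes. No test of the difference between this list and the 17 was made.

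As a check of the cells, genes of M cells and of P cells, the mating types of this yeast, were read in the control arrays. The 6 M-cell genes had signals between 5.49 and 8.69 (Sp_TMA) or 6.04 and 10.93 (Sp_EMA), and the 3 P-cell genes between 8.00 and 12.96 or 6.84 and 13.57. Of the P-cell genes sxa1 was the highest (12.96 and 13.57), with map2 at 8.00 and 6.84 and map3 at 8.52 and 8.46. The strain label gives the mating type as h-. A signal depends on the probes of a gene as well as on its RNA, so these values of a few genes do not show the mating type. With the same limit, all 6 marker genes of cells in meiosis or sporulation were in the lowest 25% of signals on both platforms in control cells. In H2O2, 3 of them (50.0%) were higher and 0 lower on Sp_TMA (mei3, mei4 and rec8). On Sp_EMA 2 (33.3%) were higher and 1 (16.7%), rec12, was lower. Over all genes, 25.2% were higher and 31.3% lower on Sp_TMA, and 22.7% and 36.2% on Sp_EMA. The part of these markers in the changes of the mug genes was not tested.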

How the data were processed

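RNA of 4 samples was measured on 2 platforms, 8 arrays in all. The deposited tables give a log2 signal for every gene on every array. The authors computed it by RMA, which corrects background, equalizes the array distributions and summarizes probes by a robust fit, within each platform (version not stated). Probes were grouped by the authors with the custom CDFs Sp_TMA and Sp_EMA, which hold single-copy probes inside annotated genes and require 4 or more probes for a gene. The values were used as deposited, and both tables hold the same 4854 genes. Systematic names placed 4842 genes in ASM294v3. The CDFs rest on an older Sanger Centre annotation release that the study's methods name and that was not used here, so positions and sequences refer to ASM294v3 alone.

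H2O2 was compared with control by limma (version 3.58.1, R 4.3.3) with moderated variances, two-sided and adjusted by Benjamini-Hochberg over all genes, without a culture term. No test for genes is named in the study's methods. The platforms were compared by an interaction term over all arrays, each change being made within its own table. Both conditions came from the same culture, so the replicate numbers pair the samples, and the culture as a replicate block was an alternative. Over all genes, differences between cultures before and after treatment had a correlation of -0.0585 (Sp_TMA) and 0.253 (Sp_EMA). Members and lists were chosen with earlier results of these data known. The rule for named genes took members called on both platforms, those with the largest difference between platforms, and those with the highest and lowest signals, and the remaining members are named as examples of their role. On simulated data, recovery depended on the noise assumed. With raw SDs shuffled between genes, limma recovered 47 of 67 changes of log2 0.5 on Sp_TMA and 41 of 67 on Sp_EMA, and called 5 and 4 unchanged genes. With variances shrunk by limma, a noise model adopted after a first version with raw SDs had recovered fewer, it recovered 65 and 66 of 67 and called 30 and 11 unchanged genes. Since most changes of the mug genes are below 0.5, the absence of a call says little about them. Other alternatives were leaving out each array, an intensity trend, centring, removing the dimmest 25% of genes, an adjusted p of 0.01 and a 2-fold minimum. Python 3.11.15 and matplotlib 3.10.9 served for sequences and plots.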

Additional observations from a re-analysis of the deposited data

How the results depend on the processing

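With the culture as a replicate block, Sp_TMA gave 3 higher and 5 lower mug genes (24.9% and 30.3% of all genes). Sp_EMA gave 3 higher and 6 lower (22.9% and 35.8% of all genes), and mug123 on Sp_TMA was the only call lost. Each fit that leaves out an array has 1 array in a group, so its counts of called genes are not given. Over all genes, fewer were called in every such fit than with all arrays, in both directions and on both platforms. A call lost there is therefore not read as particular to the mug genes. At a threshold of 0.01, 1 gene was higher and 4 lower on Sp_TMA (17.9% and 22.1% of all genes), and 1 and 5 on Sp_EMA (16.4% and 26.8%). With a 2-fold minimum, 1 was higher and 0 lower on each (6.32% and 4.18% of all genes on Sp_TMA, 5.36% and 4.84% on Sp_EMA). Without the dimmest 25% of genes, 6 mug genes were left to test on Sp_TMA and 3 on Sp_EMA, of which 3 and 2 were higher and 0 and 1 lower (28.3% and 30.3% of all genes left on Sp_TMA, 24.9% and 34.0% on Sp_EMA). Centred arrays changed no call of a mug gene, and an intensity trend ended those of mug146 and mug1 on Sp_TMA. No change of a called gene turned its direction under these alternatives, and mug66, mug184, mug174 and mug117 were called in every fit on each platform that tested them at an adjusted p below 0.05. The restriction to genes on both platforms removes no gene. Leaving out a culture in the comparison of platforms leaves 1 array per group and no residual degrees of freedom, so it was not run. Signals near the lowest values of an array, as for mug1, mug5, mug28, mug97 and mug146, limit the falls that could be seen.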

Other observations

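The cultures differed by more than 0.25 (log2) in control cells for 3 mug genes on Sp_TMA and 2 on Sp_EMA. Culture 2 was above culture 1 by 0.36 and 0.14 for mug179, by 0.34 and 0.12 for mug77, by 0.29 and 0.27 for mug97 and by 0.04 and 0.28 for mug142 (Sp_TMA and Sp_EMA). Over the 17 genes, the median absolute gap in control cells was 0.129 on Sp_TMA and 0.0731 on Sp_EMA, beside 0.0848 and 0.0757 over all genes. On Sp_TMA culture 2 was the higher for 9 of the 17 without treatment and for 14 with it, and on Sp_EMA for 13 and 10. Shares over all genes are not given for these counts or for gaps above 0.25. Neither is read as particular to the mug genes.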
